A study of Mus musculus with 6 samples.

Results

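The nuclear genes of the mitochondrial respiratory chain were described in sorted marginal zone (MZ) B cells of mice that lack CD55 and of control mice. Members were the protein-coding genes whose symbols begin with Nduf followed by a subunit letter and number (complex I), are Sdha to Sdhd (complex II), or begin with Uqcr (complex III), Cox4 to Cox8 (complex IV) or Atp5 (complex V). The rule used names and no measured value, and it found 87 of the 55487 gene IDs. Of these, 38 belong to complex I, 4 to complex II, 8 to complex III, 19 to complex IV and 18 to complex V. Ndufa4 and Ndufa4l2 are counted under complex I by name, although the Ndufa4 protein is now placed in complex IV. The samples were 6 bulk RNA-seq libraries, 3 from CD55KO mice and 3 from WT C57BL/6 mice, all 14 weeks old. B cells were enriched by negative selection and MZ B cells were then sorted by flow cytometry. The labels give no strain background, allele or targeting method for CD55KO, and nothing in them ties a library to its own mouse, so a p-value here reflects no more than how far these libraries spread, which may be technical. CD55 (decay-accelerating factor) protects cells that carry it from complement.

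The respiratory chain sits in the inner mitochondrial membrane. Complex I (NADH dehydrogenase) and complex II (succinate dehydrogenase, also an enzyme of the TCA cycle) pass electrons to ubiquinone. Complex III passes them on to cytochrome c, complex IV (cytochrome c oxidase) passes them to oxygen, and complex V (ATP synthase) uses the proton gradient to make ATP. Complexes I, III, IV and V combine subunits of the nuclear genome with a few made from mitochondrial DNA, whereas complex II is wholly nuclear-encoded. B cells that are activated and become antibody-secreting cells are known to increase respiration, and MZ B cells are known for quick conversion into such cells.

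No nuclear respiratory gene differed between genotypes past the threshold. Of the 87 members, 79 had enough counts to be tested, and 0 of these passed the threshold of 0.05 after Benjamini-Hochberg adjustment of edgeR's quasi-likelihood test, against 0.399% of all 13794 tested genes (0.138% higher and 0.261% lower in CD55KO). DESeq2 and limma-voom also called 0 members. The unadjusted p fell below 0.05 in 1 member, against 8.60% of all tested genes. The log2 differences between CD55KO and WT ran from -0.16 to 0.15, with 34 above 0 and 45 below. Their median was -0.01, against 0.0015 over all tested genes. The lowest adjusted p of a member described here was 0.632, for Atp5b. After a log2 difference, ± gives its standard error from the edgeR fit. After levels, sums and shares, ± gives the SD of the libraries of a genotype.

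Some facts of the libraries bear on every value. Total counts ran from 20056064 to 30784031 per library, and levels are given as CPM, which is counts relative to a fixed library total, scaled by edgeR's TMM factors. Cd55 itself had 6.23 to 8.95 CPM in the CD55KO libraries and 110 to 125 CPM in WT, which fits the labels. The 5 B cell markers summed to 12429 to 14495 CPM over the 6 libraries, and the 7 MZ markers to 2956 to 3277 CPM. The 5 follicular B cell markers summed to 2091 to 2337 CPM in CD55KO and 1904 to 2099 CPM in WT, so the groups barely overlapped. No gene of these lists passed the test. T cell, neutrophil and platelet markers each summed to at most 1.51 CPM, and the neutrophil genes Ly6g, Retnlg and Camp stood at 0. Of the 7 plasma cell markers tested, only Xbp1 passed (log2 difference -0.59, adjusted p 0.0047 by edgeR), lower in CD55KO. Of the 8 germinal centre markers, only Gcsam passed (-1.81, adjusted p 0.034 by edgeR), also lower. The plasma cell markers summed to 917 to 1103 CPM in CD55KO and 1051 to 1183 CPM in WT. The germinal centre markers summed to 20.7 to 30.9 CPM in CD55KO and 27.2 to 75.3 CPM in WT. Macrophage markers summed to 16.4 to 26.1 CPM in CD55KO and 12.6 to 19.4 CPM in WT. Erythroid markers were uneven, at 2002, 1602 and 36.2 CPM in CD55KO and 4388, 359 and 106 CPM in WT, and cell cycle markers were highest in WT 1 (537 CPM, against 309 to 355 CPM in the other libraries). Their part in the values was not tested. In bulk libraries, a lower level in fewer cells and less RNA per cell cannot be told apart.

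Respiratory genes are textbook targets of NRF1, of ETS-family factors such as GABPA (NRF2), and of YY1, so short stretches of their start regions are shown to make these elements visible. Promoter windows from 250 bases before to 50 after the RefSeq start (GRCm38.p6) were found for 68 of the 87 members. The NRF1 word, GCGCA and GCGC with any 1 base between them, occurred on either strand in 17 of the 68, or 25%. It occurred in 5.19% of the 27025 genes with a window and in 12.7% of the 8801 of these that were tested here. The following stretches of 30 bases carry it, 1 for each complex, read 5′ to 3′ along the gene's strand with the word in capitals.
Ndufa6 (chr15:82354249-82354278, minus strand): ccgtggcaccGCGCGTGCGCacgctgaagg
Sdhd (chr9:50603909-50603938, minus strand): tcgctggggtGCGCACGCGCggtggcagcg
Uqcrc1 (chr9:108936668-108936697, plus strand): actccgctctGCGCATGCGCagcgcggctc
Cox6a1 (chr5:115349101-115349130, minus strand): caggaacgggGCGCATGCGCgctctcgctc
Atp5g2 (chr15:102671070-102671099, minus strand): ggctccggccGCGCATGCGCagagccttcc
In Ndufa6 and Uqcrc1 the word begins after the annotated start, at bases 24 and 31.

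The ETS word CCGGAAG, whose reverse complement is CTTCCGG, was found in 17 members as well (25%). That share is close to the 22.3% of tested genes with a window that hold it, and above the 9.93% of all genes with a window. The YY1 word AAGATGGCG was found in 7 members (10.3%, against 3.98% of tested genes and 1.64% of all), 5 of them in complex I. It began before the annotated start in Atp5j, and after it, at bases 23 to 36, in Ndufa9, Ndufc1, Ndufs4, Ndufs6, Ndufs7 and Atp5j2. The word holds the letters ATG, and overlap with the coding start was not tested. The ETS word is shown in Sdhb and Uqcrh and the YY1 word in Ndufa9 and Ndufs7, where it begins just after the start.
Sdhb (chr4:140961266-140961295, plus strand): gctcggagaaaCCGGAAGcggccttccact
Uqcrh (chr4:116075062-116075091, minus strand): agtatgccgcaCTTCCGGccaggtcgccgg
Ndufa9 (chr6:126849096-126849125, minus strand): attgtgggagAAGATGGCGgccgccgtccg
Ndufs7 (chr10:80249463-80249492, plus strand): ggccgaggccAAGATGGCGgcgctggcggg
At least 1 of the 3 words stood in 35 of the 68 members with a window (51.5%, against 34.6% of tested genes). Both the NRF1 and the ETS word were found in 4 members. Tested members with the NRF1 word had a median log2 difference between genotypes of 0.03 (16 genes) and those without it -0.02 (48 genes). A match of letters is a description and not a measured binding site.

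The order of levels within the chain was much larger than any difference between genotypes. CPM were divided by transcript length (GENCODE M21, GRCm38) so that genes could be compared, which was possible for 76 members with a mean of at least 5 CPM. A single protein-coding transcript per gene was used, picked by annotation rank, then support level, then the shortest. Cox4i1, for example, has 7 annotated transcripts. The levels per kilobase and the length-scaled shares below rest on this choice. Levels ran from 16.3 CPM per kilobase for Ndufb4 to 1164 for Cox4i1, with a median of 165. By complex, the medians were 118 CPM per kilobase for complex I (36 genes), 119 for complex II (4), 249 for complex III (8), 343 for complex IV (11) and 258 for complex V (17). Cox4i1, the main form of a nuclear subunit that helps to assemble and regulate complex IV, stood apart at 1200 ± 153 CPM per kilobase in CD55KO and 1127 ± 106 in WT (SD, n = 3 each). Cox8a followed at 534 ± 54.9 in CD55KO and 526 ± 32.2 in WT. Cox6a1 (464 ± 46.4 and 494 ± 28.98) and Uqcrh (471 ± 57.6 and 445 ± 37.4) came next. These genes were measured in the same libraries, so the spreads between libraries do not rank them. Within every library Cox8a lay above Cox6a1 and Uqcrh per kilobase, while the order of Cox6a1 and Uqcrh changed between libraries. The low place of Ndufb4 is uncertain, because a related processed pseudogene, Ndufb4c, was listed at 33.6 ± 2.92 CPM in CD55KO and 33.9 ± 3.24 CPM in WT and the 2 can share reads.

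**Figure D1:**
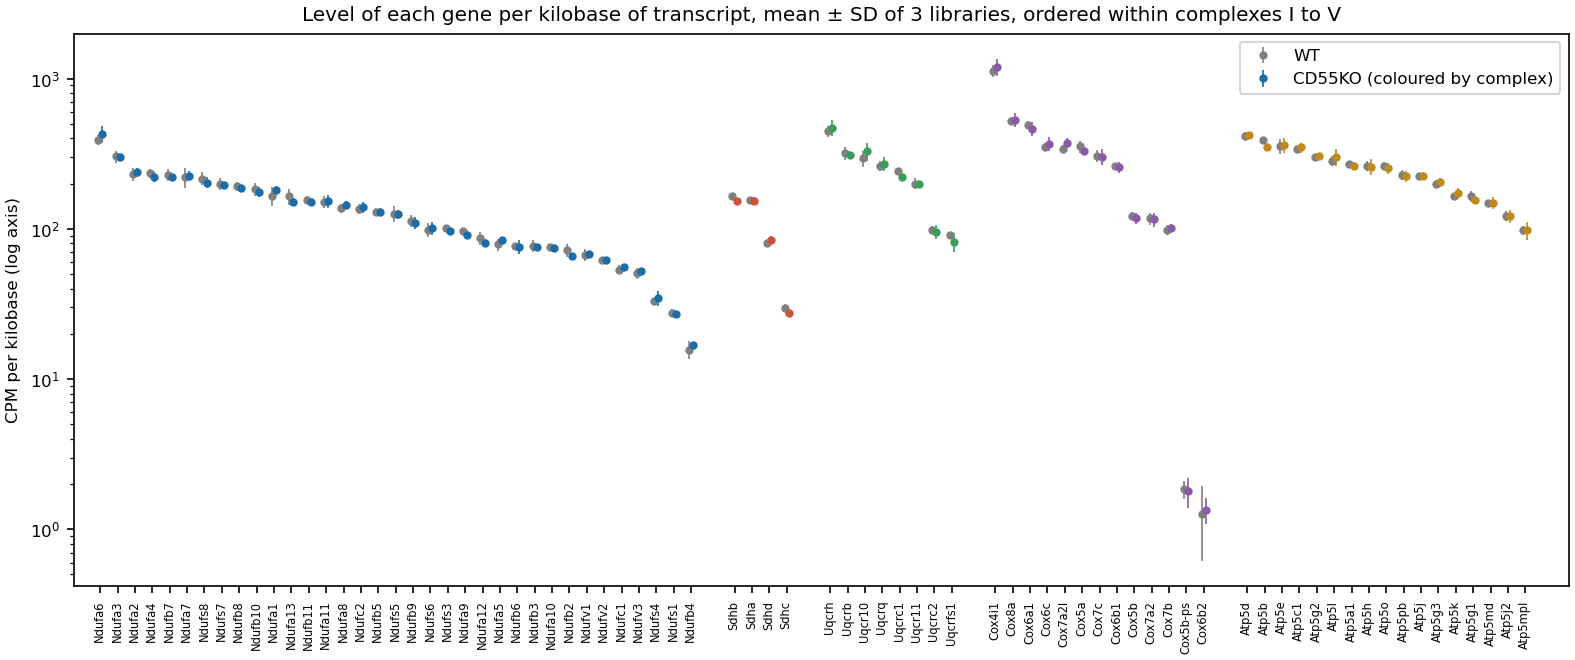
Level of nuclear respiratory genes (1 not shown) in CPM per kilobase of transcript, on a log axis, by complex, with the mean of the 3 CD55KO and the 3 WT libraries. The means of the genotypes lie close together at every level, and Cox4i1 stands above all other members.

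Complex I takes electrons from NADH through a peripheral arm of core subunits and is wrapped in accessory subunits. Of its 38 members, 37 were tested, 15 with a log2 difference above 0 and 22 below, with a median of -0.01. The 7 nuclear core subunits had a median of -0.03, and 6 of the 7 were below 0, Ndufv1 being the exception. The 30 accessory genes, a class in which Ndufa4 is counted, had a median of -0.0026, with 14 above and 16 below 0. Neither class held a gene past the threshold.

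Ndufa6, at chr15:82350140-82354322, encodes an accessory subunit and was the most abundant complex I member per kilobase. It had 216, 263 and 279 CPM in CD55KO and 221, 222 and 250 CPM in WT. The groups overlapped, since CD55KO 1 was the lowest of the 6 libraries and CD55KO 3 the highest. Its log2 difference of 0.13 ± 0.10 was the largest above 0 in complex I, with an adjusted p of 0.777 by edgeR. Ndufa10, an accessory subunit, did not overlap between genotypes, at 149, 151 and 149 CPM in CD55KO and 153, 151 and 157 CPM in WT, but its log2 difference was only -0.04 ± 0.07 (this gene was picked after its values were seen).

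Complex II consists of a flavoprotein (Sdha), an iron-sulphur protein (Sdhb) and the membrane anchors Sdhc and Sdhd. Sdha had 463, 457 and 422 CPM in CD55KO and 441, 462 and 449 CPM in WT, so the groups overlapped fully (log2 difference -0.01 ± 0.08). Sdhb had 174, 182 and 171 CPM in CD55KO and 184, 182 and 199 CPM in WT. Its CD55KO libraries all lay below the WT libraries, though CD55KO 2 and WT 2 were nearly level. The log2 difference of Sdhb was -0.10 ± 0.07, with an adjusted p of 0.770 by edgeR.

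Sdhc, at chr1:171127165-171150603, on the chromosome of Cd55 and 40.7 Mb from it, had 83.9, 89.5 and 90.1 CPM in CD55KO and 97.7, 89.2 and 97.6 CPM in WT. WT 2 fell among the CD55KO libraries while the other WT libraries were higher. The log2 difference was -0.11 ± 0.07 and the adjusted p 0.738 by edgeR. Sdhd, the partner anchor, pointed the other way, at 99.4, 111 and 102 CPM in CD55KO and 97.1, 99.2 and 101 CPM in WT (log2 difference 0.07 ± 0.07, adjusted p 0.862 by edgeR). The 4 genes of complex II thus had 1 value above and 3 below 0, with a median of -0.06, and 0 passed.

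Complex III is built on the core proteins Uqcrc1 and Uqcrc2 and the Rieske iron-sulphur protein Uqcrfs1, with small accessory subunits around them. Uqcrfs1, at chr13:30540308-30545362, had 93.2, 124 and 118 CPM in CD55KO and 131, 123 and 120 CPM in WT. CD55KO 1 was far below the other 5 libraries, which overlapped. The log2 difference was -0.16 ± 0.09, the largest below 0 of any member, with an adjusted p of 0.692 by edgeR. Uqcrc1, at chr9:108936633-108949623, had 375, 381 and 342 CPM in CD55KO and 395, 391 and 414 CPM in WT. Every CD55KO library lay below every WT library, with a log2 difference of -0.13 ± 0.08 and an adjusted p of 0.735 by edgeR. Uqcrc2 had 160, 191 and 193 CPM in CD55KO and 193, 175 and 192 CPM in WT, with full overlap (log2 difference -0.04 ± 0.09).

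Uqcr10, a small accessory subunit at chr11:4701973-4704342, had the largest difference above 0 of any tested member. It had 121, 147 and 159 CPM in CD55KO and 119, 119 and 146 CPM in WT. CD55KO 1 lay among the WT libraries, and WT 3 reached the level of CD55KO 2. The log2 difference was 0.15 ± 0.11 and the adjusted p 0.765 by edgeR. Uqcrh, the hinge protein and most abundant complex III member per kilobase, had 224, 263 and 286 CPM in CD55KO and 236, 228 and 267 CPM in WT (log2 difference 0.08 ± 0.10). The 3 core and Rieske genes summed to 659 ± 34.7 CPM in CD55KO and 711 ± 20.03 CPM in WT, with a median log2 difference of -0.13. The 5 accessory genes summed to 762 ± 72.5 CPM in CD55KO and 737 ± 59.1 CPM in WT, with a median of 0.04. The 2 classes were drawn up after their values were known, so no test is given.

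Complex IV has nuclear subunits around a core made from mitochondrial DNA, and several of these exist as paired forms, of which one is widespread and the other is typical of muscle, lung or testis. Of 19 members, 13 were tested, 6 with a log2 difference above 0 and 7 below, with a median of -0.02. Cox4i1, at chr8:120668222-120674207, had 763, 950 and 969 CPM in CD55KO and 806, 783 and 930 CPM in WT. The groups overlapped over most of their range (log2 difference 0.09 ± 0.10, adjusted p 0.881 by edgeR). Cox5a, which encodes a subunit on the matrix side, had 202, 226 and 214 CPM in CD55KO and 246, 205 and 234 CPM in WT, also with overlap. Its log2 difference of -0.09 ± 0.09 was the largest below 0 in complex IV, with an adjusted p of 0.833 by edgeR.

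In the paired families the RNA came almost wholly from the widespread form. Cox4i2 (a form of lung), Cox7b2, Cox8b, Cox8c and Ndufa4l2 had 0 counts in all 6 libraries, which allows at most 0.0957 to 0.146 CPM per library. Cox6a2, a form of heart and skeletal muscle, had 12 counts over the 6 libraries against 43994 for Cox6a1, and Cox7a1 had 50 counts. These 7 genes and a second ID named Atp5o, with 0 counts, were the 8 members not tested. Cox6b1 made up 99.5% of the length-scaled sum with its testis form Cox6b2, which had 10 to 20 counts per library.

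Within the Cox7a family the related gene Cox7a2l held most of the signal. Its product is known as a factor of supercomplexes of complexes III and IV, a role that was not measured in these mice. Cox7a2l had 365, 416 and 419 CPM in CD55KO and 366, 342 and 389 CPM in WT, and CD55KO 1 lay within the WT range. Its log2 difference of 0.13 ± 0.09 was the largest above 0 in complex IV among members of at least 5 CPM (adjusted p 0.748 by edgeR). Cox7a2 had 67.0, 80.2 and 80.8 CPM in CD55KO and 75.6, 71.0 and 85.1 CPM in WT (log2 difference -0.02 ± 0.09). As a share of the length-scaled sum of Cox7a1, Cox7a2 and Cox7a2l, Cox7a2l made up 76.8%, 75.8% and 76.0% in CD55KO and 74.7%, 74.6% and 73.6% in WT. These shares did not overlap between genotypes. The means were 76.2% ± 0.57 and 74.3% ± 0.63 (SD, n = 3 each), and a two-sided exact permutation test gave p = 0.1, the smallest that 3 against 3 libraries allow (0.2 after Benjamini-Hochberg adjustment over 4 shares). The shares were computed after the gene levels had been seen.

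**Figure D2:**
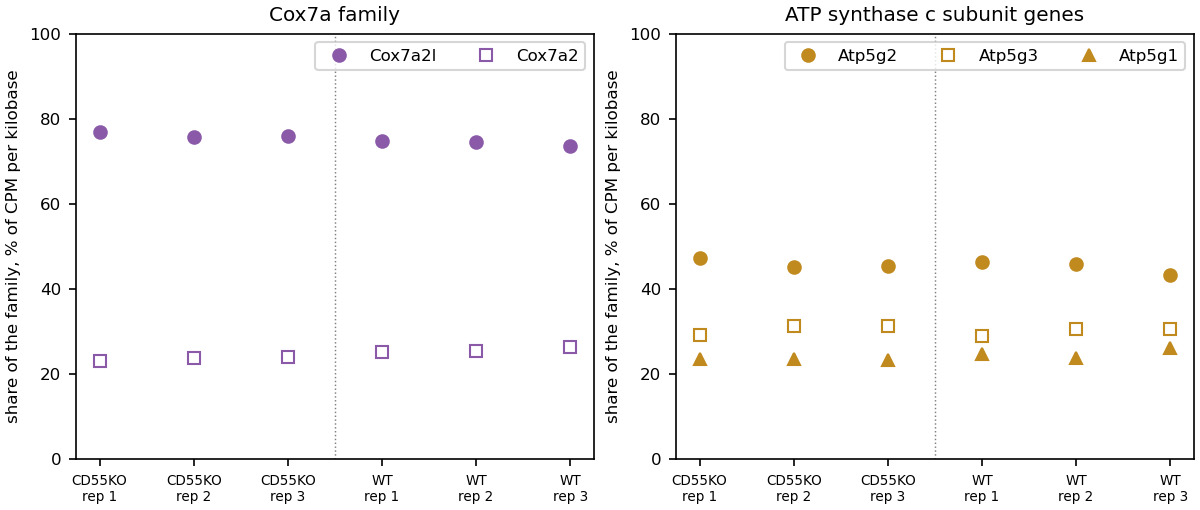
Share of each form in the length-scaled sum of its family, in percent, for each CD55KO and WT library, for the Cox7a and Atp5g families. Cox7a2l lies between 75.8% and 76.8% in CD55KO and between 73.6% and 74.7% in WT, and Atp5g1 between 23.2% and 23.6% in CD55KO and between 23.8% and 26.0% in WT.

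Complex V couples a rotating c-ring in the membrane to the catalytic F1 head. Of its 18 members 17 were tested, 9 with a log2 difference above 0 and 8 below, with a median of 0.0018. Atp5b, the catalytic beta subunit at chr10:128083273-128090391, had 634, 670 and 703 CPM in CD55KO and 733, 772 and 738 CPM in WT. Every CD55KO library lay below every WT library. The log2 difference was -0.16 ± 0.08, with a 95% interval of -0.34 to 0.02 and an adjusted p of 0.632 by edgeR. Its partner in the catalytic head, Atp5a1, had 607, 683 and 658 CPM in CD55KO and 667, 671 and 667 CPM in WT, with overlap, and a log2 difference of -0.04 ± 0.08. The F1 genes Atp5c1, Atp5d and Atp5e had log2 differences of 0.02 each, and Atp5d, the most abundant complex V member per kilobase, had 375, 398 and 398 CPM in CD55KO and 359, 382 and 412 CPM in WT.

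The c-ring protein is encoded by Atp5g1, Atp5g2 and Atp5g3, which give the same mature protein. Atp5g1 had 89.6, 95.3 and 94.2 CPM in CD55KO and 98.9, 90.4 and 107 CPM in WT (log2 difference -0.09 ± 0.08, adjusted p 0.828 by edgeR). WT 2 lay among the CD55KO libraries. Atp5g2 held 46.0% ± 1.17 of the family's length-scaled sum in CD55KO and 45.2% ± 1.60 in WT, and Atp5g3 held 29.2% to 31.4% in CD55KO and 28.9% to 30.6% in WT. Atp5g1 held 23.4% ± 0.21 in CD55KO and 24.8% ± 1.12 in WT, with no overlap between libraries, and the exact permutation test gave p = 0.1 (two-sided, adjusted 0.2). The sum of the 3 genes was 374 ± 15.2 CPM in CD55KO and 374 ± 15.9 CPM in WT. Among the remaining membrane subunits, Atp5l had the largest difference above 0 in complex V, at 141, 179 and 172 CPM in CD55KO and 146, 147 and 168 CPM in WT (log2 difference 0.09 ± 0.09). CD55KO 1 was the lowest library there and CD55KO 2 the highest.

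**Figure D3:**
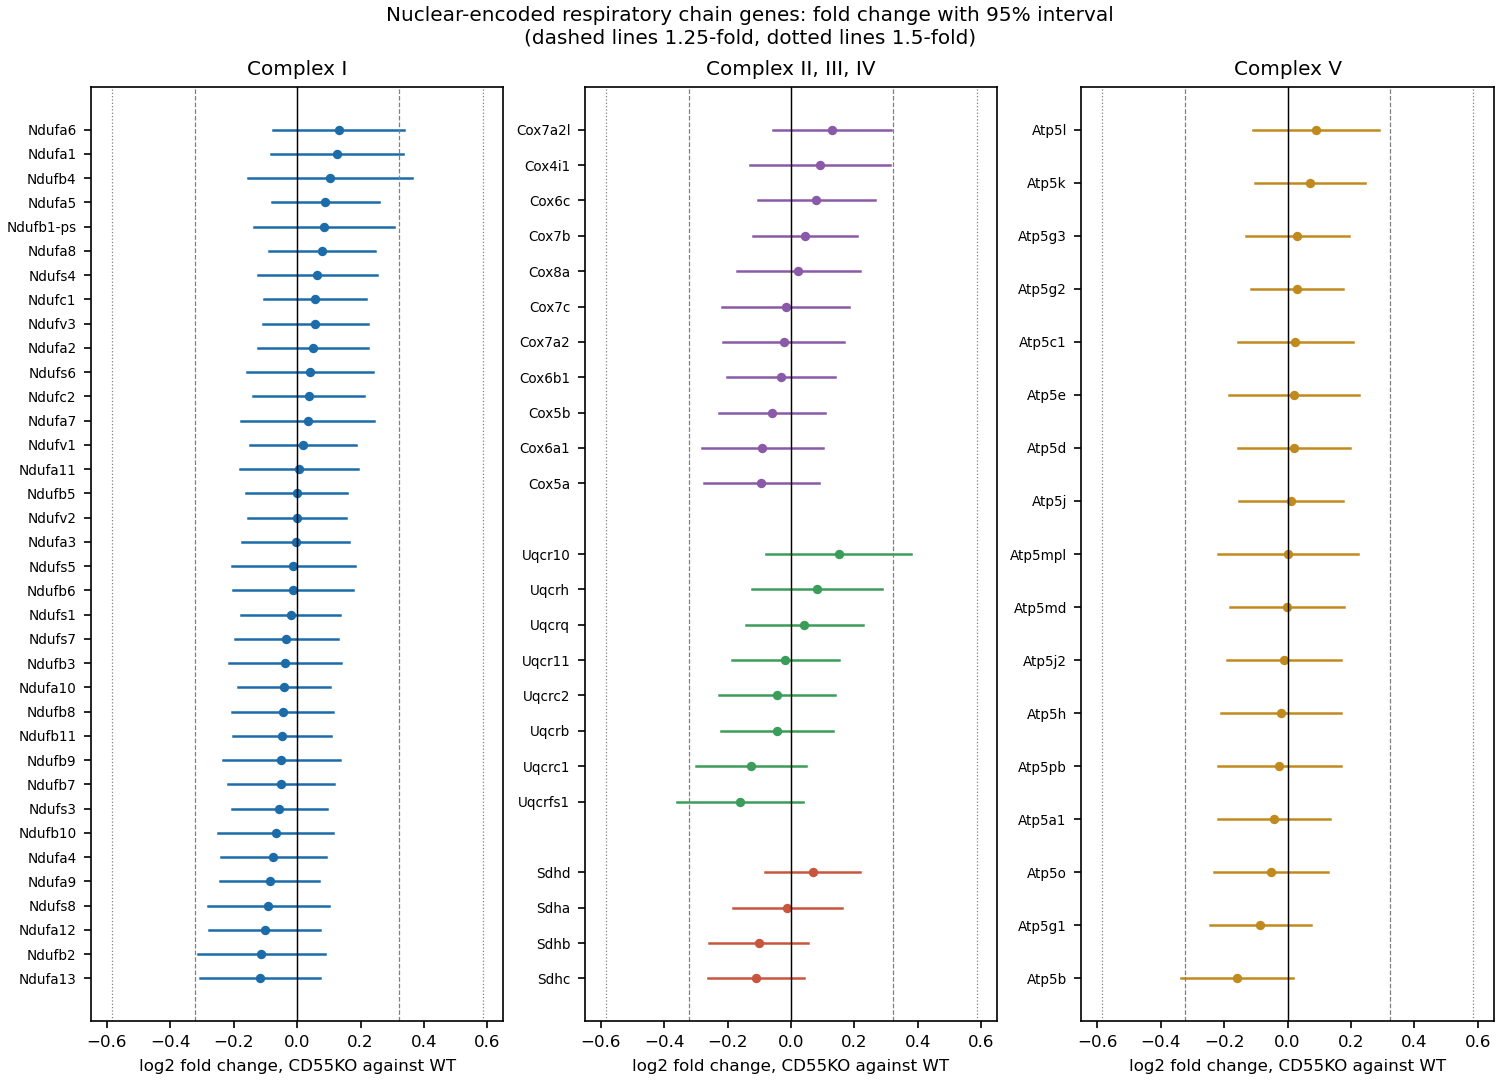
Log2 difference between CD55KO and WT of tested members with a mean of at least 5 CPM (1 not shown), by complex, with its 95% interval. Points lie between -0.16 and 0.15, and the intervals shown include 0.

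The 95% intervals bound how large a difference between these libraries could be. They rest on the spread of these libraries, which may be technical, so they may not bound a difference between mice. The 95% interval of the fold change lay between 20% lower and 25% higher for 71 of the 77 members of at least 5 CPM and within 1.5-fold in either direction for all 77. Among all tested genes these shares were 33.6% and 62.6%, but members are also more abundant, with a median of 134 CPM against 13.8 CPM. The 2 tested members below that level were Cox5b-ps and Cox6b2, at under 1 CPM, whose intervals ran from 0.526-fold to 1.82-fold and from 0.519-fold to 2.24-fold. No member had all CD55KO libraries above all WT libraries, against 7.24% of all tested genes. The opposite order was seen in 5 members, Ndufa10, Sdhb, Uqcrc1 and Atp5b among them, which is 6.33% of the 79, against 6.84% of all tested genes.

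Spread within a genotype was larger than the difference between genotypes, as for most genes measured. For 76 of the 77 members of at least 5 CPM, the larger range of log2 CPM within a genotype exceeded the difference between the genotype means, and Atp5b was the exception. The same held for 92.6% of all 13794 tested genes. On the log2 scale the median range was 0.26 and the median difference 0.05 for the members, against 0.38 and 0.12 for all tested genes. All members together summed to 12119, 13535 and 13639 CPM in CD55KO and 13004, 12625 and 13985 CPM in WT. The sums overlapped, with means of 13098 ± 849 and 13205 ± 701 CPM (SD, n = 3 each).

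CD55KO 1 was the lowest CD55KO library in 70 of the 77 members (90.9%), against 36.0% of all tested genes. Among the WT libraries, WT 2 was the lowest in 56 members (72.7%, against 31.2% of all genes) and WT 3 the highest in 60 (77.9%, against 32.9%). Most members thus went up and down together from library to library, whatever the genotype. The mean deviation from a gene's own average was -0.11, 0.04 and 0.05 in CD55KO 1 to 3 and -0.01, -0.08 and 0.10 in WT 1 to 3, on the log2 scale. By complex, CD55KO 1 was lowest of its genotype for complexes III (-0.15), IV (-0.15, 11 genes), V (-0.13) and I (-0.09). In complex II its deviation was -0.04, and CD55KO 3 was as low at -0.05. This order was not particular to respiratory genes. CD55KO 1 was lowest of its genotype in 97.6% of the 84 cytosolic and 64.1% of the 78 mitochondrial ribosomal protein genes tested, and WT 3 highest in 85.7% and 65.4%. Tested protein-coding genes under 600 bases and of at least 5 CPM numbered 136, short members included. Their mean deviations were -0.09, 0.09 and 0.08 in CD55KO 1 to 3 and -0.03, -0.09 and 0.04 in WT 1 to 3. Erythroid and cell cycle markers, which were highest in WT 1, had another order.

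**Figure D4:**
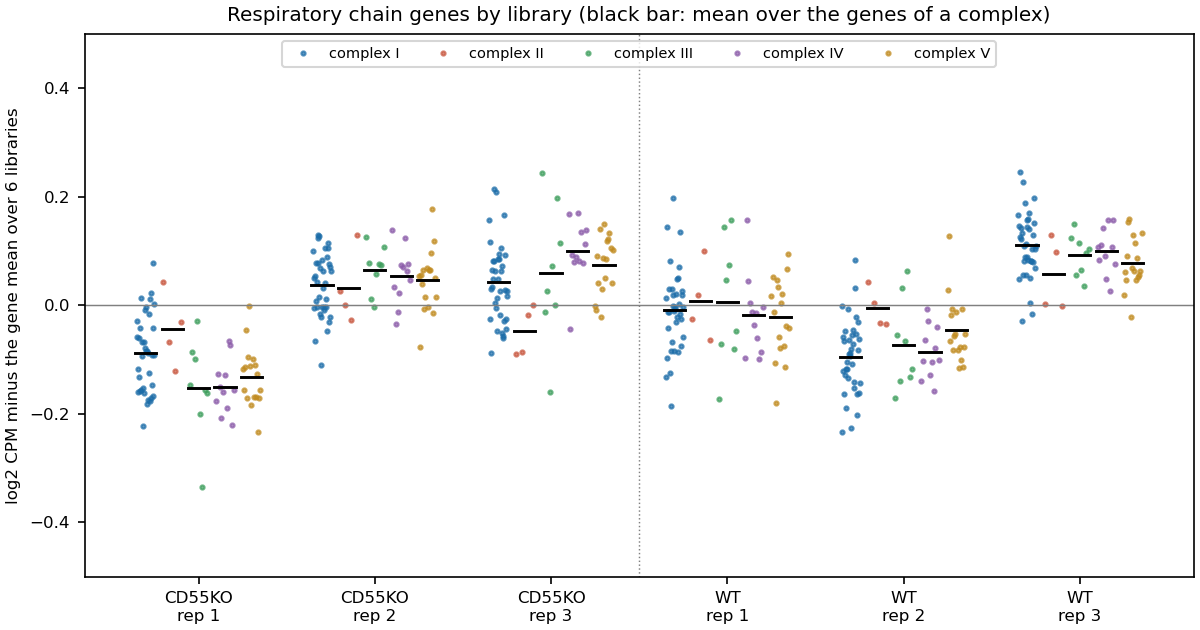
Deviation of each member's log2 CPM from its own mean over the 6 libraries, by library and complex. Most members lie below 0 in CD55KO 1 and WT 2 and above 0 in WT 3, and the mean of complex II (-0.04 in CD55KO 1) lies nearer 0 than those of the other complexes.

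Members with short transcripts leaned one way more often than members with long ones. Of 25 members with transcripts under 600 bases, 16 had log2 differences above 0 (median 0.02), against 8 of 25 from 600 to 1000 bases (median -0.03) and 8 of 26 above 1000 bases (median -0.03). The same order was seen in all tested protein-coding genes of at least 5 CPM, where 100 of 136, 258 of 482 and 3787 of 7870 were above 0. These counts include the members themselves and any cytosolic ribosomal protein genes of the same lengths, so they are not a separate set of genes. The lengths of the small subunits and of the larger catalytic ones therefore go along with the signs by class given above. The part of length in them was not tested, and the length classes were chosen after the values were seen.

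The rest of the oxidative machinery also held 0 genes past the threshold by edgeR in each list. The 13 protein genes of the mitochondrial genome, which supply the core of complexes I, III, IV and V, had log2 differences above 0 in 13 of 13, with a median of 0.15 and 0 unadjusted p-values below 0.05. Their sums were 21914, 16207 and 22341 CPM in CD55KO and 15050, 21437 and 19001 CPM in WT, so the groups overlapped and the order of libraries was not that of the nuclear genes: CD55KO 1, low for nuclear members, was high here. mt-Nd1 had the smallest p, with a log2 difference of 0.25 ± 0.15 and an adjusted p of 0.724 by edgeR, followed by mt-Nd5 at 0.21 (adjusted p 0.795).

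Of 54 listed assembly factors, which insert cofactors and join subunits, 52 were tested, 19 above and 33 below 0, with a median of -0.04. The unadjusted edgeR p was below 0.05 in 5 of the 52 (9.62%, against 8.60% of all tested genes). Atpaf2, a chaperone of the F1 alpha subunit, had the smallest p of these, with a log2 difference of -0.31 ± 0.11 and an adjusted p of 0.334 by edgeR. Tmem186, a complex I assembly factor, had 18.6, 19.1 and 19.8 CPM in CD55KO and 24.4, 20.9 and 24.1 CPM in WT (log2 difference -0.27 ± 0.10, adjusted p 0.435 by edgeR). Of 17 TCA cycle and pyruvate dehydrogenase genes, 12 were below 0 (median -0.06), with Fh1, fumarase, at -0.15 (adjusted p 0.556 by edgeR) and Idh3g, a subunit of isocitrate dehydrogenase, at 0.13 (adjusted p 0.699). Respiratory genes that the naming rule leaves out, such as Cyc1 of complex III (-0.15, adjusted p 0.636 by edgeR) and the acyl carrier protein Ndufab1 of complex I (-0.14, adjusted p 0.634), likewise did not pass.

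Regulators of mitochondrial biogenesis (16 genes) had a median of 0.03, with 10 above 0. Mitochondrial ribosomal protein genes, which serve translation of the mitochondrial subunits, were below 0 in 59 of 78 (median -0.05). The unadjusted edgeR p was below 0.05 in 3 of them (3.85%, against 8.60% of all tested genes). Cytosolic ribosomal protein genes, mostly short, were above 0 in 80 of 84 (median 0.10), with Rps27rt at 0.17 (adjusted p 0.661 by edgeR) and Rps28 at 0.22 (adjusted p 0.681). Over all tested genes, 6955 of 13794 were above 0.

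**Figure D5:**
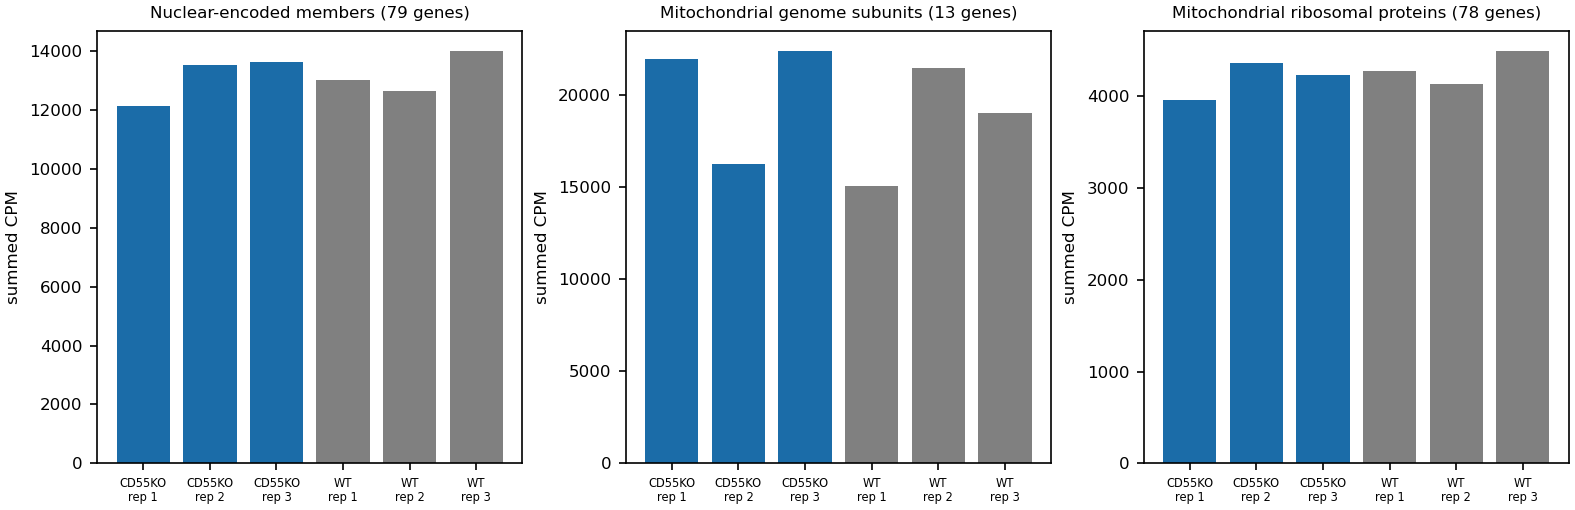
Summed CPM per library of the nuclear respiratory members, of the 13 protein genes of the mitochondrial genome and of mitochondrial ribosomal protein genes, for CD55KO and WT. The genotypes overlap in all 3 panels, and CD55KO 1 is lowest of all libraries for nuclear members but high for the mitochondrial genome.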

How the data were processed

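Per the labels' protocols, the RNeasy micro kit was used for RNA and a SMARTer Ultra Low kit for the libraries. The values are estimated counts per gene, deposited by the authors without scaling. DRAGEN, edgeR and limma stand in the submitters' processing notes, with neither version nor role. Genome build and annotation were not given in the sources used here. Repeated rows (287 of 55774) were dropped and counts rounded to whole numbers. Of the 87 members, 32 had counts that were not whole (tolerance 0.005) in at least 1 library, in some by no more than a few hundredths, and how such counts arose was not tested. All genes passing edgeR's filterByExpr (minimum count 10) were fitted with edgeR 4.0.16 (R 4.3.3): TMM scaling, robust quasi-likelihood test of CD55KO against WT, Benjamini-Hochberg adjustment over 13794 genes, threshold 0.05. Positions and lengths came from GENCODE M21, which held 99.4% of the gene IDs, and promoter windows from RefSeq.

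The genes named were, in each complex, those with the 2 smallest p-values, the largest rise and fall and the highest level per kilobase, plus the isoform families and the 2 smallest p-values of each list. The members and lists were chosen with earlier results of these data known. Kinase genes (Rps6k) and Rps19bp1, caught by the name pattern for cytosolic ribosomal proteins, were removed after the values were seen. A count of 0 allows 3 counts, for counting error only. Alternatives were DESeq2 1.42.0, limma 3.58.1 (voom, with and without quality weights), other scalings and filters, a replicate block, and leaving out each library. Of the members, 1 is counted in the totals and is not reported here by name.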

Additional observations from a re-analysis of the deposited data

How the results depend on the processing

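Members past the threshold numbered 0 under every alternative run. Over all genes, 55 passed in the main analysis (19 higher, 36 lower), against 138 by DESeq2 (60 higher, 78 lower) and 232 with no count filter (104 higher, 128 lower). Leaving out 1 library gave 37 to 53 genes (12 to 20 higher, 24 to 35 lower). With the replicate number as a block 64 genes and 0 members passed, and the deviations of same-numbered libraries correlated at 0.075, -0.124 and 0.172, so the numbers were not taken to pair samples. The members' median log2 difference of -0.01 became 0.04 without CD55KO 1, 0.04 without WT 3 and 0.02 with quality weights, and ran from -0.05 to 0.04 over the leave-outs, so its sign is not settled. With CD55KO 1 left out, 6 of the 79 tested members had an unadjusted edgeR p below 0.05, and 0 passed the threshold. The share of all tested genes in that setting is not given here, and in the main analysis it was 8.60%. Single genes changed sign as follows: Cox7a2 0.0223 with quality weights and -0.0804 to 0.0611 over the leave-outs, Atp5d -0.0248 to 0.0727, Atp5g3 -0.00789 to 0.0923, Cox6b1 -0.0867 to 0.0390, Cox6b2 -0.205 to 0.551, Cox8a -0.0469 to 0.102, Uqcrh -0.00392 to 0.174 and Sdhaf2 -0.0748 to 0.00196. The cause was not tested. The lowest adjusted p of a named member was 0.418 with all libraries (DESeq2) and 0.373 with 1 left out. Libraries number 3 per genotype, and the intervals given are not limits of detection, because they are not adjusted for the number of genes tested. In the main analysis the interval of the assembly factor Atpaf2 ran from -0.54 to -0.09 and left out 0. Its adjusted p was 0.334 by edgeR. A gene that did not pass may therefore still differ, also by more than its interval would need to leave out 0.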

Other observations

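Other named genes of the lists that did not pass in edgeR's quasi-likelihood test had these log2 differences and adjusted p-values: Ndufaf1 -0.19 (0.569) and Coa3 -0.18 (0.501) below 0, and Surf1 0.18 (0.519), Sdhaf1 0.36 (0.761), Ttc19 0.23 (0.821) and Uqcc3 0.13 (0.742) above 0. All 6 are assembly factors, of complexes I, IV, IV, II, III and III in that order. The assembly factor Sdhaf2 of complex II lay near 0 (-0.03, adjusted p 0.946 by edgeR). Tmem242, an assembly factor of complex V, stood at -0.10 (adjusted p 0.821 by edgeR). It had 38.9, 40.7 and 41.9 CPM in CD55KO and 44.5, 42.4 and 42.9 CPM in WT. Of the mitochondrial ribosomal protein genes, Mrps25 stood at -0.27 (0.410) and Mrpl38 at -0.25 (0.454), and of the biogenesis regulators Polrmt, the mitochondrial RNA polymerase, at -0.23 (0.628) and Polg, the mitochondrial DNA polymerase, at -0.24 (0.690). The processed pseudogene Ndufa12-ps was listed at 31.1 ± 3.02 CPM (SD, n = 3) in the CD55KO libraries and at 34.4 ± 3.34 CPM in the 3 WT ones, a level near those of several members, and it can share reads with Ndufa12.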
